A study of Mus musculus with 5 samples.

Results

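The genes described here are markers of cortical projection neurons, the glutamatergic cells of the cerebral cortex, read in RNA of mouse striatum, the region that lies beneath the cortex. They form a list of 33 symbols, each matched by its current or older name to the probes of a single-colour oligonucleotide array and represented by its brightest probe. Of the 33, 32 were measured, out of 17742 genes named on 26423 probes, and Crym was not analysed here. The members comprised 6 transcription factors of many cortical layers, 8 transporters, receptors and surface or secreted proteins, 5 upper layer markers, 6 deep layer markers and 7 further regulators.

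The samples were striata of 5 male FVB mice aged 12 months. All 5 were transgenic models of Huntington's disease (HD): a human ubiquitin promoter drives GFP fused to HTT exon 1 of human origin, with 84 CAG repeats. The 2 mice of the HD group carried that transgene alone. The 3 mice of the HD_miR196a group came from crosses with a line that expresses a miR-196a precursor, also from a human ubiquitin promoter, which is active in most cell types rather than in neurons alone. The labels describe motor function as improved in the HD_miR196a mice and weak in the HD mice. No mouse without the HD transgene was analysed here, and neither the number of founder lines nor littermate relations are given in the sources used here. The labels do not say from which gene or species the transgenic precursor came. The mature miR-196a that both mouse precursor genes encode is shown because miR-196a separates the groups, with its seed (bases 2 to 8) in capitals, from RefSeq (GRCm38.p6, plus strand, chr11:96265187-96265208 for Mir196a-1 and chr15:102973365-102973386 for Mir196a-2).
mmu-miR-196a-5p: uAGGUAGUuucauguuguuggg

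Projection neurons of the cortex arise from progenitors of the dorsal telencephalon, use the vesicular glutamate transporter Slc17a7 and send axons to the striatum, where they are the main source of excitation. Their identity is set by factors such as Emx1, Neurod2, Neurod6 and Tbr1, and their layers are marked by different genes, with Cux1, Cux2 and Rorb in upper layers and Fezf2, Tbr1 and Ctgf in deep ones. Striatal projection neurons are GABAergic and descend from the ventral telencephalon, and the cortex and the claustrum adjoin the striatum.

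All levels below are log2 intensities after quantile normalization, with a floor of 1, and every difference is HD_miR196a minus HD unless 2 mice are named. Deposited medians ran from 160.0 to 185.6 between mice, and no depth exists for an array, whose number limits the precision. The 544 probes of 529 olfactory receptor genes, mostly silent in striatum, served as a background scale, with a 95th percentile of 8.31, and 26 of the 32 cortical genes had a mean above it. Striatal identity was clear in every mouse. Penk, the enkephalin precursor, was at 14.73 to 15.25, the dopamine receptor Drd1 at 12.69 to 13.11 and Ppp1r1b, which encodes DARPP-32, at 10.96 to 11.74, while the Drd2 probe was at 0.00 to 2.04, within the background scale. In whole tissue, fewer cells of a type and less RNA per cell cannot be told apart.

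Between the groups, the cortical genes gave no difference that exceeded the spread between mice. Of the 32, 12 were higher and 20 lower in HD_miR196a mice, where 48.9% of all genes were higher. Limma, fitted on all 26423 probes with Benjamini-Hochberg adjustment, called 0 of the 32 at an adjusted p under 0.05, against 0.00% of all probes. The smallest adjusted p among the members was 0.979. At an unadjusted p under 0.05 limma found 0 members and 1099 probes, 4.16% of the array. With eBayes trend and robust settings 0 members were called as well. The median difference was -0.07 over the 32 genes and -0.004 over all genes, and single differences lay between -0.50 for Neurod2 and 0.34 for Nrn1. The 2 groups overlapped for every member, whereas they did not overlap for 20.7% of all genes. The members vary together between mice, so these counts are not 32 separate observations.

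How much the comparison could show differed widely between genes, because limma's 95% interval follows the spread between mice. For Neurod2 the interval ran from -5.30 to 4.30 and for Neurod6 from -5.01 to 4.08, so differences of many-fold in either direction lay inside it. It ran from -0.34 to 0.22 for Tle4, from -0.23 to 0.25 for Etv1 and from -0.36 to 0.36 for Cux1. A narrow interval need not mean a well measured gene. The mean of the Etv1 probe, 5.89, lay within the background scale, where small differences cannot be seen, and that of Cux1, 8.35, just above it. The plot of group differences shows these widths side by side.

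**Figure D1:**
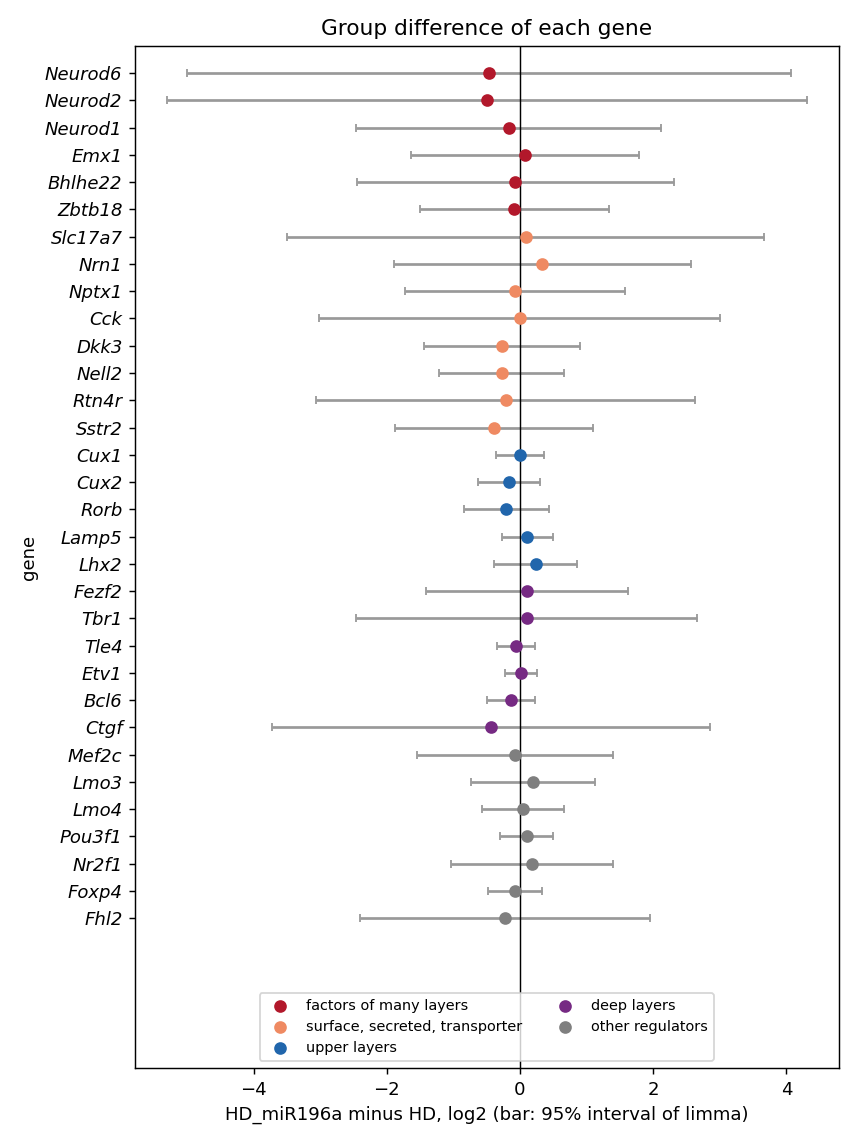
HD_miR196a minus HD (log2, horizontal axis) for each of the 32 genes (vertical axis), points coloured by role, with the 95% interval of the limma fit over 3 and 2 mice. Every interval includes 0, and the intervals of Neurod2 and Neurod6 are the widest while those of Tle4 and Etv1 are narrow. The Etv1 probe lay within the background scale.

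The sign of the group difference changed with the mice compared. Without HD mouse 1, 0 of the 32 genes were higher in HD_miR196a mice and the median difference was -0.71. Without HD mouse 2, 30 of the 32 were higher and the median was 0.65. Leaving out HD_miR196a mouse 1 gave 23 higher genes and a median of 0.34, and leaving out mouse 1 of both groups gave 2 higher genes and a median of -0.37. A fit with a single HD mouse takes its spread from the HD_miR196a mice. Without scaling of the arrays 2 genes were higher, where the median of all probes was itself shifted to -0.20, and 13 of the 32 lay above the median of all probes both then and with quantile normalization.

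The large contrast lay inside each group. HD_miR196a mouse 1 and HD mouse 1 were the 2 lowest of the 5 mice for 25 of the 32 genes, where this held for 14.0% of all genes. HD mouse 1 was below HD mouse 2 for 31 of the 32, Foxp4 being the exception, and for 8178 of all 17742 genes. HD mouse 2 was the highest of all 5 mice for 24 of the 32, and for 3713 of all genes. HD mouse 2 exceeded HD mouse 1 by more than 2-fold for 19 of the 32, a rule met by 2.28% of all genes. HD_miR196a mice 2 and 3 both exceeded HD_miR196a mouse 1 by more than 2-fold for 12 of the 32, against 1.34% of all genes. The lower value lay within the background scale for 9 of those 19 in HD mouse 1 and for 8 of those 12 in HD_miR196a mouse 1, where the size of the gap is uncertain. The same 12 genes met both rules, against 0.479% of all genes. The median range over the 5 mice was 1.50 for the members and 0.40 for all genes. These rules compare single mice and were written with the levels known, so they describe these 5 arrays and carry no test.

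**Figure D2:**
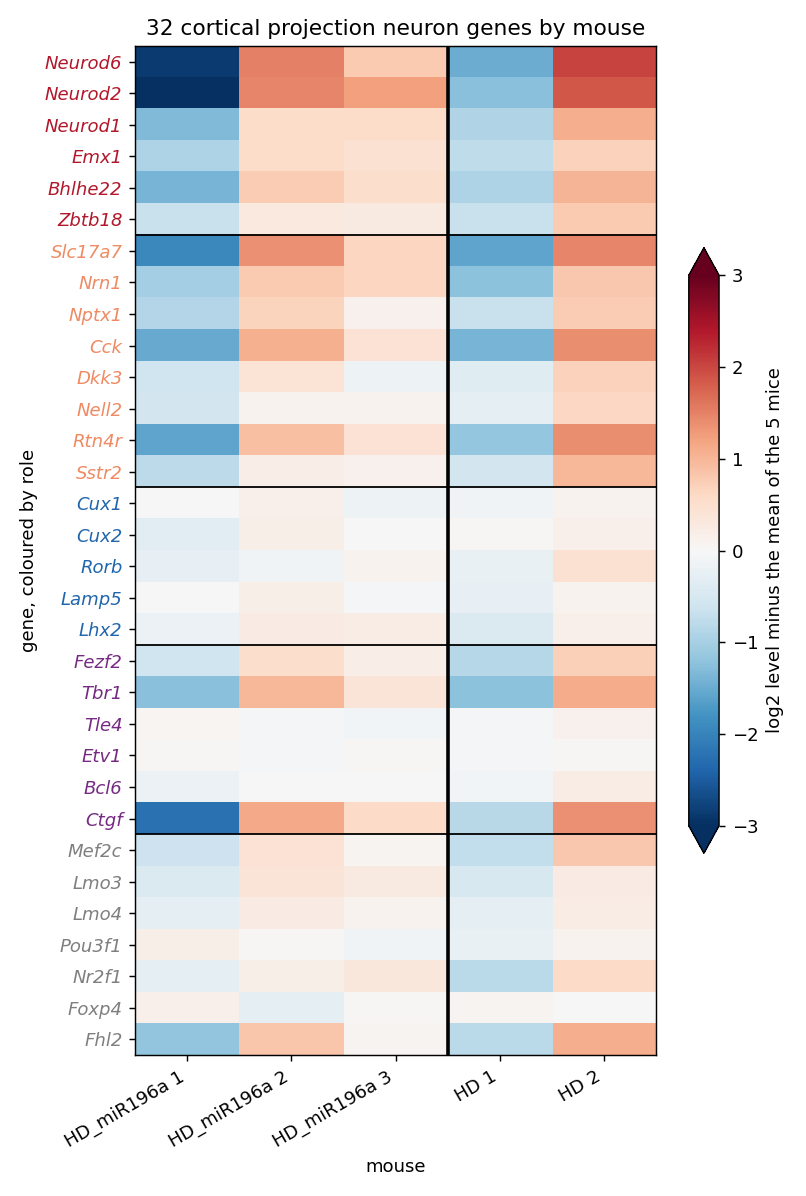
Log2 level of each of the 32 genes (rows, grouped and coloured by role) in each of the 5 mice (columns), shown as the difference from that gene's mean over the 5 mice, with the colour scale ending at 3 in either direction. Blue columns for HD_miR196a mouse 1 and HD mouse 1 face red columns for the other mice in the first 14 rows, except Dkk3 in HD_miR196a mouse 3, and the rows of Cux1, Tle4, Etv1 and Foxp4 are nearly white.

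The transcription factors of many layers showed the widest spread. Neurod6, a basic helix-loop-helix factor of postmitotic cortical and hippocampal pyramidal neurons, measured 5.83, 10.20 and 9.49 in HD_miR196a mice 1, 2 and 3, and 7.21 and 10.73 in HD mice 1 and 2. Mouse 1 of each group was low, within the background scale, and the other 3 mice were above it, so no exact fold between them can be given. In deposited intensity units the Neurod6 probe read 53.0, 1102 and 704 in the HD_miR196a mice and 157 and 1877 in the HD mice. Neurod2, a related factor needed for cortical neuron maturation and synapse formation, measured 5.41, 10.16 and 9.92 against 7.44 and 10.56. Its HD_miR196a mouse 1 value, within the background scale as was that of HD mouse 1, lay 4.75 below that of mouse 2, the widest gap between HD_miR196a mice 1 and 2 among the members. Group means were 8.51 ± 2.34 (SD, n = 3) and 8.97 ± 2.49 (SD, n = 2) for Neurod6, and 8.50 ± 2.68 and 8.997 ± 2.21 for Neurod2. Their limma differences of -0.47 ± 1.74 (SE) and -0.50 ± 1.84 were small beside these SDs.

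Neurod1, the third factor of that family on the list, measured 6.57, 8.44 and 8.45 in HD_miR196a mice and 6.99 and 8.99 in HD mice. The same 2 mice were low, although the mean of this probe was within the background scale. Bhlhe22, a helix-loop-helix repressor that guides the axons and areas of cortical neurons, was at 7.46, 9.62 and 9.37 against 7.92 and 9.85. Emx1, the homeobox gene that marks the dorsal telencephalon, stood at 7.47, 8.95 and 8.85 against 7.63 and 9.08. A second, dimmer Emx1 probe gave 5.49, 7.80 and 7.38 against 6.03 and 8.14, with the same mice low. The zinc finger repressor Zbtb18 measured 10.18, 11.12 and 11.11 against 10.16 and 11.61. All 6 factors were lowest in mouse 1 of each group and highest in HD mouse 2, and the group means of each differed by less than the larger SD.

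Promoters of 3 factors and of the glutamate transporter gene are shown because Neurod2, Neurod6 and Slc17a7 varied together across mice and Cux1 varied little. Each is the 250 bases before the annotated start in RefSeq (GRCm38.p6): Neurod2 on the minus strand at chr11:98329646-98329895, Neurod6 on the minus strand at chr6:55681264-55681513, Slc17a7 on the plus strand at chr7:45163671-45163920 and Cux1 on the minus strand at chr5:136565982-136566231. Capitals mark CAGATG or its reverse complement CATCTG, the E-box that NEUROD factors prefer, and AGGTGT or its reverse complement ACACCT, the core of a T-box half-site as bound by TBR1. These motifs share no position in the windows shown.
Neurod2: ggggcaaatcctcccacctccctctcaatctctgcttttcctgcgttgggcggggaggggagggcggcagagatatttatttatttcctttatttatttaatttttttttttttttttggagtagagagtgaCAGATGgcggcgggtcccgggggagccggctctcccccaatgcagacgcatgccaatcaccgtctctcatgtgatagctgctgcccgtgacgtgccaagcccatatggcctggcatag
Neurod6: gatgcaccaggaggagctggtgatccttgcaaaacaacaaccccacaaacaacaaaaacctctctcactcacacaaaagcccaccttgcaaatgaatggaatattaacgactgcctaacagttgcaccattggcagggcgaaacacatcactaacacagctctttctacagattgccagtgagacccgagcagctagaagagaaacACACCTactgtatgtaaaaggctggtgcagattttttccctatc
Slc17a7: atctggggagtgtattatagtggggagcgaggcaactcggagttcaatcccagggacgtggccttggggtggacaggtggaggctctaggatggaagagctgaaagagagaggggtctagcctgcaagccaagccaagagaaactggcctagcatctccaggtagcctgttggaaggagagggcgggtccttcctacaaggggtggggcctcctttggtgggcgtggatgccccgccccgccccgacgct
Cux1: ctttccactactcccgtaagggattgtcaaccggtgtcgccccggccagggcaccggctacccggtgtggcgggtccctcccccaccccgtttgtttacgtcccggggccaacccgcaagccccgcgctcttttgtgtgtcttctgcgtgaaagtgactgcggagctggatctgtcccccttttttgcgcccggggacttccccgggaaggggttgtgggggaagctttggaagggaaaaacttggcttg

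Neurod2 held 1 E-box match beginning 118 bases before its start, and Neurod6 held 1 T-box match beginning 44 bases before its start. The Slc17a7 and Cux1 windows held neither string of letters. RefSeq windows were at hand for 25 of the 32 genes, and 7 of the 25 held the E-box in at least 1 window, namely Cck, Cux2, Etv1, Mef2c, Neurod2, Nr2f1 and Zbtb18, where 16.3% of all 27025 genes with a window did. The T-box core was found for 3 of the 25, Lmo3, Mef2c and Neurod6, where 13.6% of all genes held it. Genes with several starts have several windows, and a match is a description of the letters only. Cck, 1 of the holders of the E-box, varied widely between mice, with a range of 2.915. Cux2, a holder with a mean just above the background scale, varied less, with a range of 0.517. The probe of Etv1, another holder, lay within the background scale, where small differences cannot be seen. Any link between the letters and the spread was not tested.

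Genes of synaptic transmission and of the cell surface showed the same order of mice. Slc17a7, which loads glutamate into the vesicles of cortical neurons and is the usual marker of these cells, measured 8.47, 11.76 and 11.05 in HD_miR196a mice 1, 2 and 3 and 8.82 and 11.87 in HD mice 1 and 2. Levels in the 2 low mice, 1 in each group, differed by 0.35, while the gap inside the HD group was 3.05, or 8.26-fold. Its limma difference was 0.08 ± 1.37 (SE), with group means of 10.43 ± 1.74 (SD, n = 3) and 10.34 ± 2.15 (SD, n = 2). Cck, a neuropeptide that cortical pyramidal cells and some interneurons express, was at 11.05, 13.64 and 13.01 against 11.18 and 13.97. Its group means, 12.57 and 12.58, were nearly identical in spite of a 6.88-fold gap between the HD mice.

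Nrn1, a membrane-anchored protein induced by activity that promotes neurite growth, measured 11.07, 12.87 and 12.74 against 10.87 and 12.91. Rtn4r, the Nogo receptor that limits axon growth, was at 6.53, 9.01 and 8.53 against 6.96 and 9.51. For Nptx1, a neuronal pentraxin that gathers glutamate receptors at synapses, the levels were 9.74, 11.28 and 10.74 against 9.94 and 11.38. In each of these 3 genes HD_miR196a mouse 1 and HD mouse 1 were at least 0.80 below every other mouse. Sstr2, a somatostatin receptor, measured 7.69, 8.68 and 8.61 against 7.94 and 9.48. Levels of Dkk3, a secreted protein of the Dickkopf family, were 12.51, 13.53 and 12.96 against 12.73 and 13.81, so HD_miR196a mouse 3 lay only 0.23 above HD mouse 1. Nell2, a secreted neuronal glycoprotein, had 7.38, 8.04 and 8.03 against 7.64 and 8.54, with a mean within the background scale. All 8 genes were highest in HD mouse 2, and second probes of Sstr2 and Nell2 had mouse 1 of each group as the 2 lowest too.

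**Figure D3:**
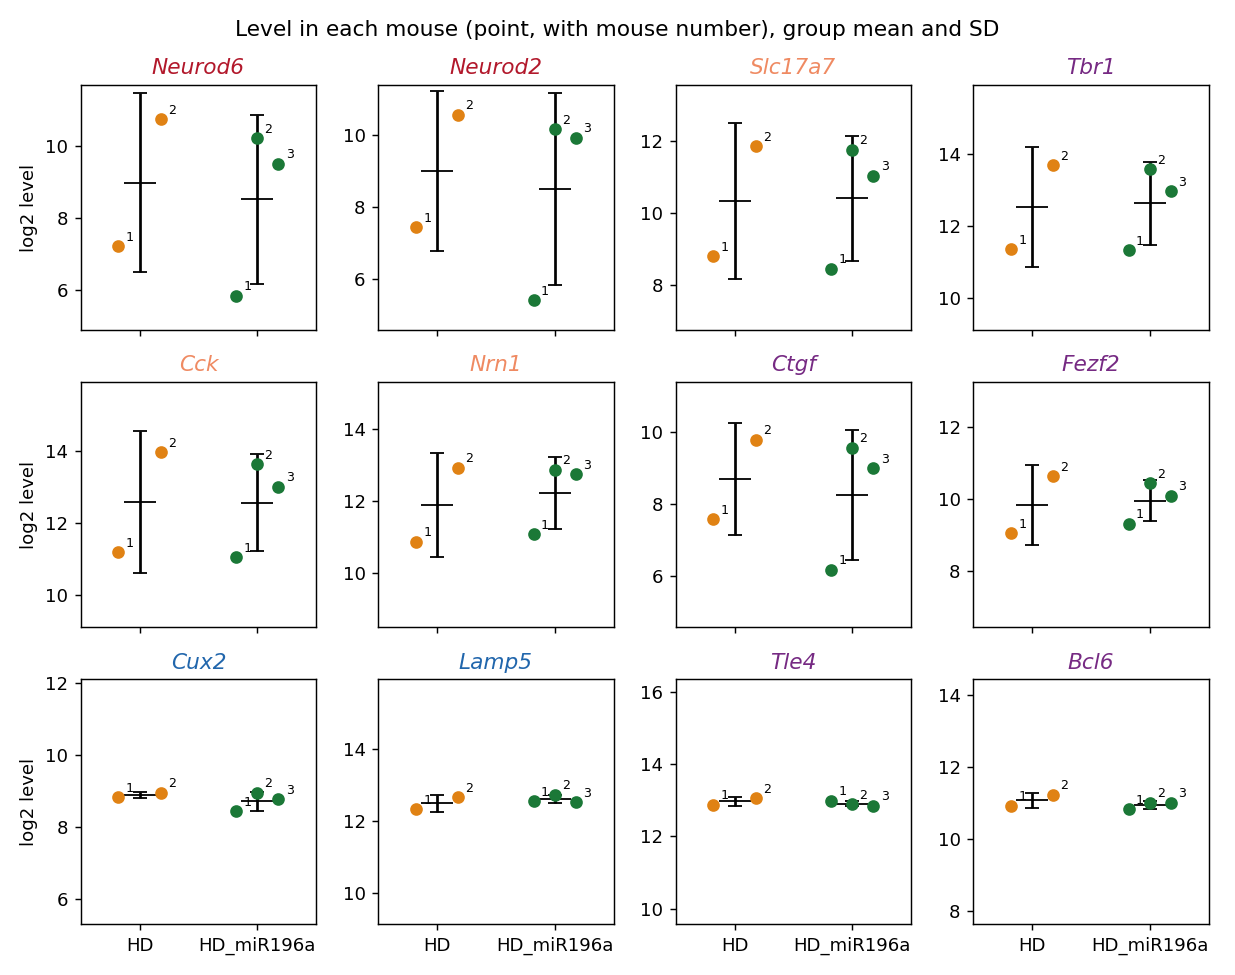
Log2 level (vertical axis, each panel spanning the same number of log2 units) of 12 of the genes in the 2 HD mice (orange) and the 3 HD_miR196a mice (green), each point marked with its mouse number, with bars for the group mean and SD. In the upper 2 rows of panels mouse 1 of each group lies below all the others, and in the lowest row the 5 mice lie close together.

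Upper and deep layer markers were then compared. The median difference between the groups was -0.001 over 5 upper layer markers and -0.024 over 6 deep layer markers, so neither set separated the groups. Averaged over its markers, the HD_miR196a group was at 9.35 ± 0.14 (SD, n = 3) in the upper set and 10.09 ± 0.59 in the deep set, and the HD group at 9.35 ± 0.28 (SD, n = 2) and 10.16 ± 0.79. The sets differed in their spread between mice of 1 group. HD mouse 2 exceeded HD mouse 1 by a median of 0.34 over the upper markers and 0.93 over the deep markers. Members past 2-fold numbered 0 of 5 in the upper set and 3 of 6 in the deep set. The 2 sets are small, their probes differ in brightness, and the contrast between them was not tested.

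Within the deep set, the 6 markers split after their values were seen into genes that varied and genes that did not. Tbr1, a T-box factor of layer 6 and of early-born neurons, measured 11.33, 13.57 and 12.97 in HD_miR196a mice and 11.35 and 13.69 in HD mice. Ctgf, listed by RefSeq as Ccn2, is a secreted matrix protein that marks layer 6b, and it was at 6.18, 9.56 and 8.99 against 7.58 and 9.78. Fezf2, which specifies neurons that project below the cortex, was at 9.31, 10.43 and 10.09 against 9.05 and 10.62. For these 3 the mice numbered 1 were again the 2 lowest, and Ctgf had the third widest range of all members, 3.60. Tle4, a corepressor used as a marker of layer 6, stayed at 12.99, 12.90 and 12.85 against 12.88 and 13.06. Bcl6, a repressor found in layer 5 and in lymphocytes, was at 10.83, 11.01 and 11.00 against 10.93 and 11.23, with the mice numbered 1 lowest by only 0.076. Etv1, an ETS factor of layer 5, was at 5.91, 5.85 and 5.91 against 5.83 and 5.93, a probe within the background scale, where small differences cannot be seen.

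Upper layer markers were flat by comparison with Tbr1, Ctgf and Fezf2. Cux1, a homeobox factor expressed in many cell types besides layers 2 to 4, measured 8.35, 8.51 and 8.20 in HD_miR196a mice against 8.25 and 8.46 in HD mice, and its highest and lowest values were both from HD_miR196a mice. Its relative Cux2 was at 8.44, 8.96 and 8.77 against 8.82 and 8.95. Probes of these 2 genes lay just above the background scale. Lamp5, a membrane protein of lysosomes and synaptic vesicles, was at 12.55, 12.73 and 12.53 against 12.32 and 12.66. The LIM homeobox gene Lhx2, which acts in cortical progenitors and upper layers, had 10.52, 10.94 and 10.91 against 10.26 and 10.84, with mouse 1 of each group lowest. Rorb, the nuclear receptor of layer 4, was at 6.10, 6.25 and 6.46 against 6.13 and 6.82, within the background scale. Only Lhx2 and Rorb had mouse 1 of each group as the 2 lowest, as 4 of the 6 deep markers did. Their ranges were 0.68 and 0.72, wider than those of the deep markers Tle4, Etv1 and Bcl6 (0.20, 0.10 and 0.40).

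**Figure D4:**
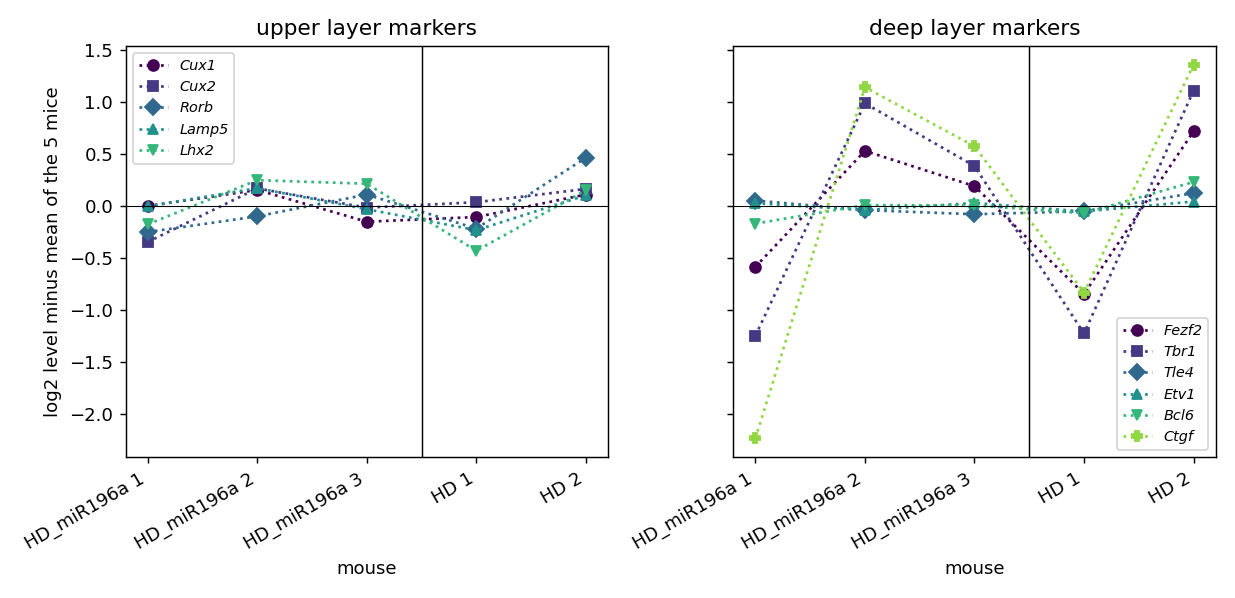
Log2 level minus the gene's mean over the 5 mice (vertical axis) for the 5 upper layer markers (left) and the 6 deep layer markers (right) in each mouse, with dotted lines joining the values of 1 gene and a vertical line between the groups. Tbr1, Ctgf and Fezf2 are low in HD_miR196a mouse 1 and HD mouse 1, whereas Tle4, Etv1, Bcl6 and the upper layer markers stay close to their means.

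The 7 further regulators were mixed. Fhl2, a LIM-only coactivator, measured 7.42, 9.46 and 8.69 in HD_miR196a mice 1, 2 and 3 and 7.80 and 9.70 in HD mice 1 and 2. Mef2c, a MADS-box factor that controls synapse number, was at 11.18, 12.23 and 11.88 against 11.06 and 12.61, and its second probe kept the 2 low mice, at 9.42 and 9.44, apart from the other 3. Nr2f1, a nuclear receptor that patterns cortical areas, measured 9.65, 10.12 and 10.30 against 9.14 and 10.53. The LIM-only genes Lmo3 and Lmo4 had smaller ranges of 0.87 and 0.54. Lmo3 was at 10.91, 11.73 and 11.62 against 10.86 and 11.60, and Lmo4 at 14.02, 14.56 and 14.41 against 14.03 and 14.53. For these 5 genes mouse 1 of each group was lowest. Pou3f1, a POU factor also found in myelinating glia, and Foxp4, a forkhead factor of many tissues, did not share that order, and their highest values were in HD_miR196a mouse 1. Pou3f1 measured 10.40, 10.25 and 10.11 against 10.00 and 10.31. Foxp4, within the background scale, measured 7.58, 7.17 and 7.48 against 7.52 and 7.44.

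Other cortical projection neuron genes, 19 by name and 17 measured, showed the same pattern only in part. Limma called 0 of the 17 at an adjusted p under 0.05, 9 were higher and 8 lower in HD_miR196a mice, and the median difference was 0.01. The mice numbered 1 were the 2 lowest for 8 of the 17, against 14.0% of all genes, and HD mouse 2 exceeded HD mouse 1 by more than 2-fold for 6. HD mouse 1 was instead above HD mouse 2 for 6 of the 17, among them Ntsr1, at 8.88, 8.30 and 8.68 against 8.59 and 8.31. Cplx3, a complexin of layer 6b neurons, measured 6.01, 9.22 and 8.74 against 6.86 and 9.44, with a mean within the background scale. Hs3st2, a heparan sulfate sulfotransferase, was at 11.30, 13.11 and 12.27 against 11.52 and 13.15. Otof and Hs3st4 had the smallest unadjusted p of the list in the limma fit. Their limma differences were 0.65 ± 0.24 (SE, adjusted p = 0.979) and 0.40 ± 0.31 (adjusted p = 0.979), and the mean of each probe lay within the background scale. The closest structures other than cortex were also read. In the claustrum list, 4 of 5 genes measured, Nr4a2 was at 7.64, 10.33 and 9.88 against 7.86 and 10.87, and Gnb4 was at 9.07, 9.08 and 9.03 against 8.85 and 9.16.

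Markers of other cell types moved beside the cortical genes in some lists and not in others. Of 10 genes of thalamus and pallidum, 5 ran the opposite way, with mouse 1 of each group the 2 highest. That order held for 16.4% of all genes. In Plekhg1, 1 of those 5, the range over the 5 mice was only 0.18. Its mean of 7.98 lay within the background scale, where small differences cannot be seen. Rora, another of the 10, had the mice numbered 1 lowest, at 9.98, 10.35 and 10.45 against 10.18 and 10.35. Calb2, a calcium-binding protein of thalamic and other neurons, measured 11.81, 9.91 and 10.54 in HD_miR196a mice and 11.04 and 9.16 in HD mice, and Slc17a6, the vesicular glutamate transporter of subcortical neurons, was at 11.58, 9.70 and 10.96 against 11.13 and 9.79. The mean over that list was 9.34, 8.66 and 9.17 in HD_miR196a mice and 9.19 and 8.54 in HD mice. Interneuron genes were divided: HD mouse 1 was above HD mouse 2 for 5 of 10, and the mice numbered 1 were the 2 lowest for 4 and the 2 highest for 3. Among them were Vip, a peptide of cortical interneurons, at 6.57, 9.56 and 9.56 against 7.89 and 10.02, and Cort, a somatostatin-like peptide, at 7.40, 9.03 and 9.13 against 7.43 and 9.85. Lhx6, a homeobox gene of interneurons, ran the other way at 10.86, 9.61 and 10.11 against 10.55 and 9.28. The same Lhx6 probe is also counted in the thalamus and pallidum list, so it is not separate from the genes counted there. Oligodendrocyte genes were higher in HD mouse 1 than in HD mouse 2 for 9 of 9, and highest in HD_miR196a mouse 1 among the 3 mice of its group for 9 of 9. Of all 17742 genes, 9474 met the first rule and 6611 the second. The mice numbered 1 were the 2 highest for 22.2% of the oligodendrocyte genes, against 16.4% of all genes. The oligodendrocyte list mean was 12.44, 12.11 and 11.81 against 12.01 and 11.62. Medium spiny neuron genes were lower in HD mouse 1 than in HD mouse 2 for 14 of 16, against 8178 of all 17742 genes. Their median gap was 0.32. HD_miR196a mouse 1 was the lowest of its group for 6 of 16, against 6141 of all genes. Hippocampal genes, 7 in all and 3 of them above the background scale, had 0 for which the mice numbered 1 were the 2 lowest. Astrocyte genes, 7 in all, likewise had 0. This order held for 14.0% of all genes, and with 7 genes a count of 0 cannot be told from that share. Microglia genes had list means of 10.46 to 10.57 and endothelial genes of 8.62 to 8.84 over the 5 mice. The part that these other cells have in the spread of the cortical genes was not tested.

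**Figure D5:**
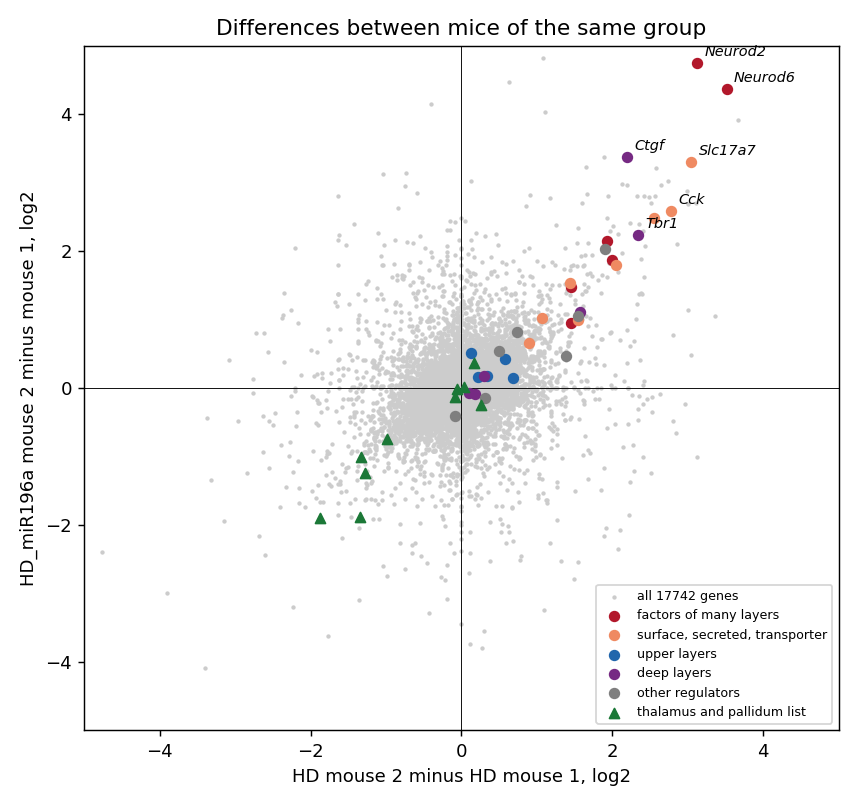
HD mouse 2 minus HD mouse 1 (log2, horizontal axis) against HD_miR196a mouse 2 minus HD_miR196a mouse 1 (log2, vertical axis) for all 17742 genes in grey, the 32 cortical genes coloured by role and the thalamus and pallidum list as green triangles, with both axes ending at 5 and 18 genes outside them. Neurod6, Neurod2, Slc17a7, Cck, Tbr1 and Ctgf lie far to the upper right, and the upper layer markers lie near the centre. The triangles of Calb2, Slc17a6, Gbx2, Lhx6 and Tcf7l2 lie to the lower left, and that of Plekhg1 lies near the centre.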

How the data were processed

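Total RNA of striatum from 5 mice was amplified and labelled with Cy5, per the labels' protocols. The deposited intensities are linear, with 1 value per probe and sample, and some lie below 0. Each title names reps 1 and 2 of 1 numbered sample, taken here as 1 mouse. How the authors joined these repeats, corrected background or scaled the intensities was not stated in the sources used here.

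Groups and mouse numbers came from the sample titles. Intensities were quantile normalized, set to a floor of 1 and log2 transformed. Probes were named through the platform table and RefSeq symbols (GRCm38.p6): 18213 matched directly, 2126 through a synonym, 38 not at all, and 6046 had no symbol. Each gene was represented by the probe with the highest mean over the 5 mice. Group was the only term of a two-sided fit of all 26423 probes by lmFit and eBayes (limma 3.58.1, R 4.3.3), with 3 residual and 1.75 prior degrees of freedom. An adjusted p under 0.05 after Benjamini-Hochberg adjustment over all probes counted as a call. The fit was tested on simulated data. Nothing in the labels beyond the numbering says how the mice relate, and p-values measure only the spread between these samples.

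The members, the marker lists and the rules were chosen with earlier results of these data known. Every member is named with its values, with the 2 genes of smallest p or the brightest genes of other lists; other genes were named after their values were seen. Alternatives were median centring, no scaling, 2 filters on dim probes, a higher floor, robust eBayes with a trend, a block on mouse number, left-out mice and averaging the probes of each gene.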

Additional observations from a re-analysis of the deposited data

How the results depend on the processing

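The count of 0 probes called by limma became 1 among the 19817 probes above the lower quartile (Acot8), 4 after raising the floor to the median olfactory receptor signal (Acot8, Tmeff1 and 2 probes with no gene name) and 3 with trend and robust settings (Acot8, Serpina9 and Lats2). With 1 mouse left out it ranged from 0 to 3, reaching 3 without HD mouse 1 (Pitpnm1, Crot and Lrrc8e) and 3 without HD mouse 2 (Rrp36, Phc1 and Sun2). None of these genes is a member, all were named after their values were seen, and the count of 0 members called held under every alternative run. The 12 cortical genes higher in HD_miR196a mice became 2 with no scaling and 2 without mouse 1 of each group, and ranged from 0 to 30 with 1 mouse left out. The cause was not tested. Of 446 member values under alternatives, 11 moved by more than the pooled within-group SD, and 78 changed sign without being called, 52 of them with 1 mouse left out. With a replicate block on the mouse number, 0 members were called, 9 of 32 were higher and the median was -0.155. Only numbers 1 and 2 occur in both groups, and the deviations of same-numbered mice from their group means correlated across probes at 0.236 and 0.170, although the 2 HD deviations are mirror images by construction. No label says that a number marks a shared litter, batch or day. Dim signal limits Neurod1, Nell2, Rtn4r, Rorb, Etv1 and Foxp4, whose means lay within the background scale.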

Other observations

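Beyond the cortical list, 85 genes exceeded 2-fold between HD mouse 2 and HD mouse 1 and also between HD_miR196a mice 2 and 3 and HD_miR196a mouse 1, and 12 of them were members. Of the 85, 35 had a mean above the background scale. Genes below were picked from these after their values were seen and carry no test. Among them was Sv2b, a synaptic vesicle protein of glutamatergic neurons, at 12.25, 14.05 and 13.62 in HD_miR196a mice 1, 2 and 3 and 12.84 and 14.08 in HD mice 1 and 2. Prdm8, a partner of Bhlhe22 in cortical neurons, stood at 6.67, 8.78 and 8.79 against 6.58 and 9.43, with a mean within the background scale. The activity-induced genes Npas4 and Arc were at 8.56, 10.35 and 10.12 against 8.99 and 10.07, and at 10.46, 11.46 and 11.71 against 10.98 and 12.58.

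In the opposite direction 15 genes met both rules, 0 of them members, and 4 had a mean above the background scale. The peptide precursor Gal, known from hypothalamus and basal forebrain, was at 12.95, 9.96 and 11.47 against 13.28 and 9.37. Oxt, the oxytocin precursor of hypothalamic neurons, measured 11.09, 7.004 and 9.41 against 10.13 and 6.73. The other 2 were Calb2, given with the thalamus and pallidum list, and Ctxn3, a cortexin, at 10.65, 8.95 and 9.35 against 9.43 and 8.33. In Gal and Oxt, HD_miR196a mouse 3 lay between the mice numbered 1 and the mice numbered 2, as it did for Slc17a7, Cck and Tbr1 in the reverse order.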
